A study of Homo sapiens with 38 samples.

Results

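The 8 distal heavy-strand mitochondrial tRNAs are MT-TD, MT-TK, MT-TG, MT-TR, MT-TH, MT-TS2, MT-TL2 and MT-TT, the tRNA genes that lie on the heavy-strand transcript beyond the early tRNA genes near its start. They are defined by Ensembl identifier among the 22 mitochondrial tRNA features of a count table of 90127 features, not by a measured value. The definition was set with earlier results of these data known. The counts come from small RNA sequencing of KG1a and HL60, human cell lines from acute myeloid leukaemia, and of the extracellular vesicles they shed, large (lEV) and small (sEV). Each source was sequenced as total RNA and after rPAL, a chemistry that oxidises the sialic acid of glycans and attaches biotin to it, so that RNA carrying sialylated glycans (sialoglycoRNA) can be pulled down. The question addressed is which RNAs are more or less abundant after the pull-down than in the matching total RNA.

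There were 38 libraries in 12 groups. KG1a cell rPAL and KG1a cell total RNA had 4 libraries each, and every other group had 3, namely KG1a lEV rPAL and total, KG1a sEV rPAL and total, HL60 cell rPAL and total, HL60 lEV rPAL and total, and HL60 sEV rPAL and total. Both lines were labelled wild type and are established lines. Cells for cell RNA grew with 10% serum, whereas vesicles came from cells kept without serum for 2 days, so source and serum cannot be told apart in any comparison of vesicles with cells. Whether replicates came from separate cultures is not stated in the labels, so the p-values cover the spread between libraries, which may be technical.

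Mitochondrial heavy-strand genes are transcribed together as a long precursor in which tRNAs lie between the protein-coding genes. In general the mitochondrial RNase P cuts at the 5′ ends of the tRNAs and ELAC2 at their 3′ ends, which frees the flanking mRNAs. TRNT1 then adds the CCA tail that the genes do not encode. Each mature tRNA carries 1 amino acid to the mitochondrial ribosome, which makes only subunits of the respiratory chain and of ATP synthase.

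The gene sequences are printed because the members differ mainly in position and anticodon, and the values below are read against their neighbours. All lie on the plus strand of the mitochondrial chromosome in GRCh38, and the sequences are those of GENCODE release 29, written as DNA from 5′ to 3′ with the anticodon in capitals.
MT-TD: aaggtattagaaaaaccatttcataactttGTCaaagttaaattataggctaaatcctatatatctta
MT-TK: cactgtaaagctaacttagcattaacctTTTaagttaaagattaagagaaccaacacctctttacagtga
MT-TG: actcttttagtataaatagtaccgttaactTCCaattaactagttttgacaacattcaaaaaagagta
MT-TR: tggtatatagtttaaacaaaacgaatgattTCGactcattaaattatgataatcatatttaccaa
MT-TH: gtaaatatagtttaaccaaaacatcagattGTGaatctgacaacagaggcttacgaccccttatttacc
MT-TS2: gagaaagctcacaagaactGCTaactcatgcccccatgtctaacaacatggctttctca
MT-TL2: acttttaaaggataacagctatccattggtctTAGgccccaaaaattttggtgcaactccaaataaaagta
MT-TT: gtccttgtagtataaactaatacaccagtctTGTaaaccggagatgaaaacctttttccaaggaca

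MT-TD (tRNA for aspartate, chrM:7518-7585) lies 3 bases after MT-TS1, a light-strand gene, and directly before MT-CO2. MT-TK (lysine, chrM:8295-8364) lies 25 bases after MT-CO2 and 1 base before MT-ATP8. MT-TG (glycine, chrM:9991-10058) and MT-TR (arginine, chrM:10405-10469) flank MT-ND3 without a gap. These 4 genes therefore separate mRNAs from one another.

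MT-TH (histidine, chrM:12138-12206), MT-TS2 (serine, chrM:12207-12265) and MT-TL2 (leucine, chrM:12266-12336) follow each other with gaps of 0 bases, between MT-ND4 and MT-ND5. MT-TS2 is the shortest at 59 bases and is known for lacking the D arm of the usual cloverleaf. MT-TT (threonine, chrM:15888-15953) is the last tRNA gene of the heavy strand, follows MT-CYB directly and lies 2 bases before MT-TP, which is on the light strand. The 8 genes are 59 to 71 bases long with 23.1% to 45.8% G and C.

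Library totals were 2380745 to 15532758 counts for rPAL and 5498168 to 14892937 for total RNA. The 8 tRNAs together had 30792 counts in all libraries, of 440168 on all mitochondrial tRNAs, so several values below rest on few counts. CD34, a marker of primitive cells such as KG1a, had 1.18 to 4.77 CPM (the count scaled to a library total of 1e6) in KG1a cell total RNA and 0 to 0.140 CPM in HL60 cell total RNA. The neutrophil granule genes MPO, ELANE, AZU1 and PRTN3, markers of HL60, summed to 2.24 to 3.995 CPM in HL60 cell total RNA and to 0 to 0.0725 CPM in KG1a cell total RNA. In KG1a rPAL vesicles, replicate 3 of lEV (2869426 counts) and replicate 3 of sEV (2421134 counts) held no count of any of the 8 tRNAs. In bulk RNA, fewer cells or vesicles and less of a tRNA in each cannot be told apart.

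The CPM of every member in every library are shown in the plot of levels by group. MT-TH had the highest mean of the members in all 6 rPAL groups, while MT-TR and MT-TD were among the scarcest members in most groups. In HL60 lEV and HL60 sEV rPAL that lead rested on 1 library each, with 19 counts and 1 count.

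**Figure D1:**
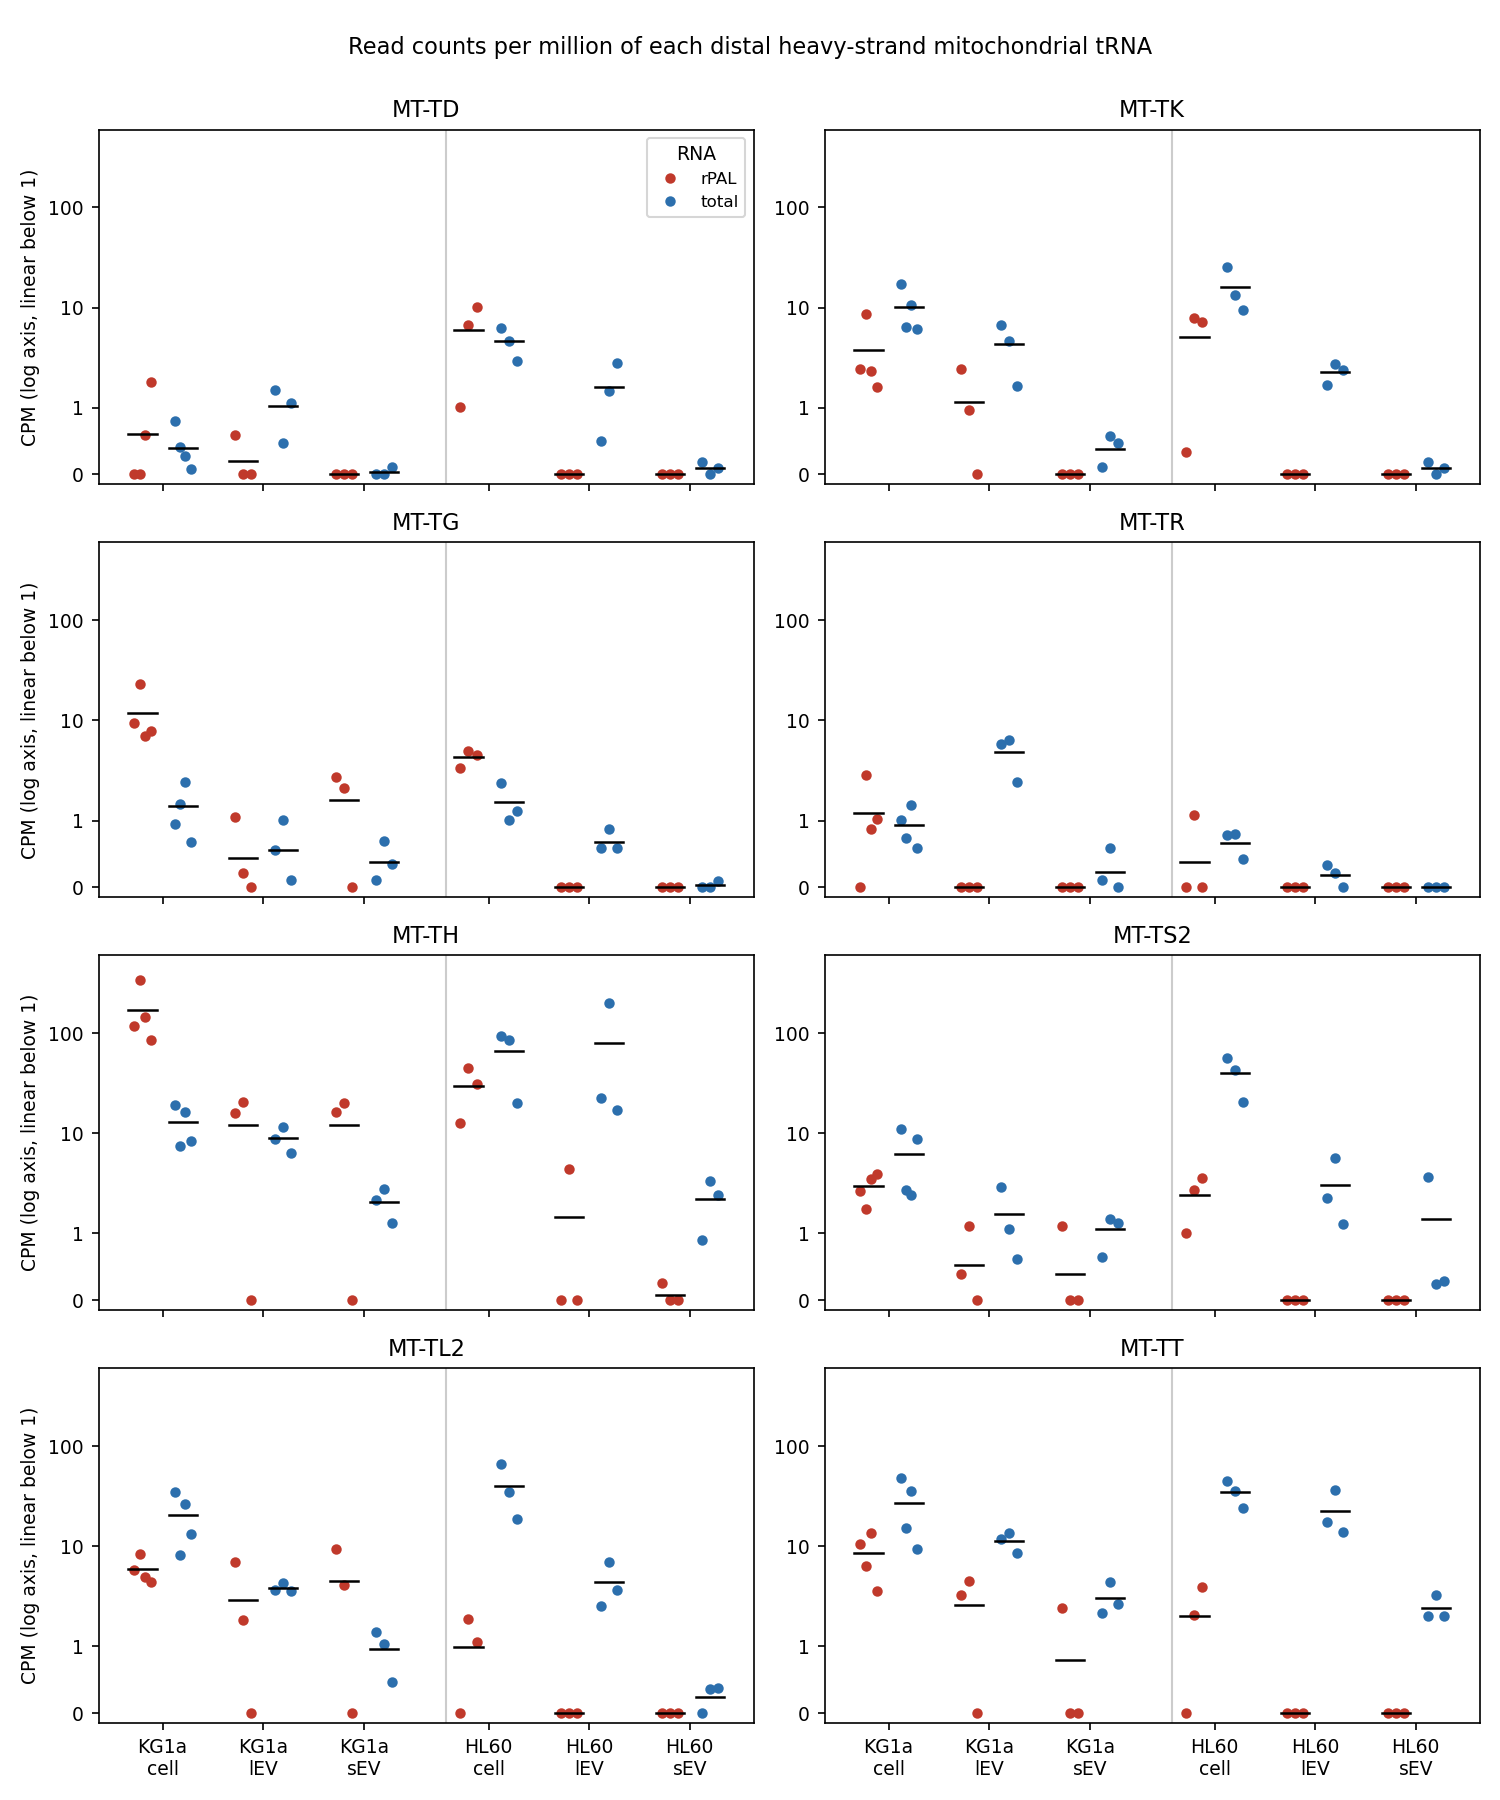
CPM (count scaled to the library total, log axis that is linear below 1) of each of the 8 tRNAs in rPAL (red) and total RNA (blue) libraries of KG1a and HL60 cells, lEV and sEV; each point is 1 library and black bars are group means. MT-TH lies between 85.95 and 338.4 CPM in KG1a cell rPAL, above the 7.48 to 19.13 CPM of KG1a cell total RNA, and HL60 vesicle rPAL libraries lie at or near 0 for every member.

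In KG1a cells the pull-down split the 8 tRNAs. MT-TH and MT-TG rose and MT-TL2 fell in rPAL relative to total RNA. MT-TS2, the gene directly after MT-TH, and MT-TL2, the gene after MT-TS2, did not pass the test as higher. Of the 7 members tested, 2 were higher, against 8.89% of all 6592 features tested, and 1 was lower, against 9.86%. A member could pass the filter on low counts through the group where it was high. These counts of calls therefore describe the members tested and are not read against the shares over all features. The median log2 fold change of the tested members was -1.20, and that of all features was -0.04.

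MT-TH had 117.6, 338.4, 145.1 and 85.95 CPM in KG1a cell rPAL (replicates 1 to 4), against 19.13, 7.48, 16.3 and 8.479 CPM in KG1a cell total RNA. The groups did not overlap. Its log2 fold change was 3.38 (SE 0.55, edgeR quasi-likelihood test, Benjamini-Hochberg adjusted p = 0.00165). MT-TG had 9.433, 23.04, 6.943 and 7.79 CPM in KG1a cell rPAL and 0.9421, 1.479, 2.45 and 0.6716 CPM in KG1a cell total RNA. All 4 rPAL libraries were above all 4 total libraries, with a log2 fold change of 2.83 (SE 0.62, edgeR adjusted p = 0.00677). Both calls held when any single library was left out, with largest adjusted p of 0.0118 for MT-TH and 0.0384 for MT-TG, but MT-TG's was lost without the filter on low counts.

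MT-TL2 had 5.857, 8.353, 4.988 and 4.442 CPM in KG1a cell rPAL and 34.71, 8.137, 26.29 and 13.35 CPM in KG1a cell total RNA. The groups touched, since rPAL replicate 2 exceeded total replicate 2. The log2 fold change was -2.06 (SE 0.59, edgeR adjusted p = 0.0288). The call was lost without rPAL replicate 3, without total replicate 1 and without total replicate 3, with adjusted p up to 0.109. It was also lost without TMM scaling, with KG1a cell rPAL replicates 1 and 4 only, without the count filter and with the replicate number as a block, and it was kept in 2 of these 6 other settings, those with DESeq2's test and its size factors.

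edgeR called none of the other KG1a members. DESeq2's test also called MT-TK (adjusted p = 0.0139) and MT-TT (adjusted p = 0.00828) lower. edgeR called MT-TT lower with DESeq2 size factors and MT-TK lower with rPAL replicates 1 and 4 only. MT-TK had 2.434, 8.629, 2.347 and 1.61 CPM in rPAL and 17.1, 6.411, 10.65 and 6.129 CPM in total RNA (log2 fold change -1.82, SE 0.63, edgeR adjusted p = 0.0643). MT-TT had 10.65, 6.426, 13.5 and 3.541 CPM in rPAL and 48.19, 15.12, 35.71 and 9.319 CPM in total RNA (log2 fold change -1.96, SE 0.65, edgeR adjusted p = 0.058). The range of the total libraries was reached by 1 rPAL library for MT-TK and by 2 for MT-TT. MT-TS2 had 1.744 to 3.927 CPM in rPAL and 2.45 to 11.01 CPM in total RNA (edgeR adjusted p = 0.325). MT-TR had 0 to 2.846 CPM in rPAL and 0.5877 to 1.414 CPM in total RNA (edgeR adjusted p = 0.995), and its rPAL range enclosed that of total RNA. MT-TD, with 0 to 1.803 CPM in rPAL and 0.08395 to 0.7971 CPM in total RNA, did not pass the filter on low counts and was not tested.

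Replicate 2 of KG1a cell rPAL was the highest rPAL library for MT-TH, MT-TG, MT-TK, MT-TR and MT-TL2. It also had the most mitochondrial mRNA, 4265 CPM against 1429 to 2676 CPM in the other KG1a cell rPAL libraries. The part of this library-wide level in the values of the 8 tRNAs was not tested, but the calls for MT-TH and MT-TG held without that library.

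In HL60 cells edgeR called 3 members lower in the pull-down and none higher. MT-TS2, MT-TL2 and MT-TT fell, while MT-TH and MT-TG, which rose in KG1a cells, were not called. Of the 7 members tested, 3 were lower, against 18% of all 6902 features tested. MT-TL2 and MT-TT had no count in rPAL replicate 1 and could pass the filter on low counts through total RNA. The 3 of 7 therefore describes the members tested and is not read against the share over all features. The median log2 fold change of the tested members was -1.88, and that of all features was 0.04.

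MT-TS2 had 1.012, 2.694 and 3.617 CPM in HL60 cell rPAL and 56.72, 43.44 and 20.48 CPM in HL60 cell total RNA (log2 fold change -4.28, SE 0.64, edgeR adjusted p = 0.000822). MT-TL2 had 0, 1.865 and 1.101 CPM in HL60 cell rPAL and 66.92, 35.18 and 18.94 CPM in HL60 cell total RNA (log2 fold change -5.53, SE 0.93, edgeR adjusted p = 0.00163). MT-TT had 0, 2.072 and 3.931 CPM in HL60 cell rPAL and 45.02, 35.79 and 23.97 CPM in HL60 cell total RNA (log2 fold change -4.34, SE 0.96, edgeR adjusted p = 0.0062). For these 3 tRNAs every rPAL library lay below every total library. All 3 calls held in each of the 6 fits that left out a library and under each of the 5 other settings. Their sizes moved more: without total replicate 3 the log2 fold changes were -4.96 for MT-TS2, -6.24 for MT-TL2 and -4.93 for MT-TT. MT-TL2 had -6.63 without rPAL replicate 2, and MT-TT had -5.41 without rPAL replicate 3.

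MT-TH had 12.82, 44.65 and 30.98 CPM in HL60 cell rPAL and 94.74, 86.62 and 20.2 CPM in HL60 cell total RNA (log2 fold change -1.47, SE 0.64, edgeR adjusted p = 0.104). Total replicate 3 lay inside the rPAL range. MT-TK had 0.3373, 7.77 and 7.233 CPM in rPAL and 25.54, 13.29 and 9.436 CPM in total RNA (log2 fold change -1.88, SE 0.85, edgeR adjusted p = 0.117). MT-TG had 3.373, 4.973 and 4.56 CPM in rPAL and 2.354, 1.007 and 1.258 CPM in total RNA (log2 fold change 1.24, SE 0.54, edgeR adjusted p = 0.103). MT-TG was therefore higher in all 3 rPAL libraries, and MT-TK lower, without passing the threshold. The count of members called rose to 5 with DESeq2's test, with its size factors and without the count filter, and the 2 added under each were MT-TH and MT-TK, both lower.

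MT-TD was tested in HL60 cells and not called. It had 1.012, 6.63 and 10.06 CPM in HL60 cell rPAL and 6.278, 4.633 and 2.936 CPM in HL60 cell total RNA (edgeR adjusted p = 0.92), and the groups overlapped. MT-TR had 11 counts in HL60 cell rPAL, all in replicate 2 (1.14 CPM), against 0.4194 to 0.8058 CPM in HL60 cell total RNA, and was not tested.

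The rPAL effect on MT-TH differed between the lines. The difference of the log2 fold changes, HL60 cells minus KG1a cells, was -5.02 (SE 0.88, edgeR interaction contrast, adjusted p = 0.00815). edgeR called 1 of the 8 members, MT-TH, for this difference, against 1.18% of the 11630 features tested that were called lower. Of the other mitochondrial tRNAs, 3 of 8 light-strand and 1 of 6 early heavy-strand tRNAs were also called lower, and none higher. The median difference was -2.15 for the members, -1.89 for the light-strand and -1.95 for the early tRNAs, and -0.36 for all features. MT-TH's call held in all 14 fits that left out a library, with adjusted p up to 0.0464, in the fit with KG1a cell rPAL replicates 1 and 4 only and under the 5 other settings. The differences for MT-TS2 (-3.15, SE 1.03, edgeR adjusted p = 0.11) and MT-TL2 (-3.65, SE 1.07, edgeR adjusted p = 0.0799) were not called by edgeR. Both were called lower by DESeq2's test (adjusted p = 0.0419 for MT-TS2 and 0.0119 for MT-TL2) and by edgeR with KG1a cell rPAL replicates 1 and 4 only (adjusted p = 0.0408 and 0.0443). MT-TT (-2.54), MT-TG (-1.77), MT-TR (-1.24), MT-TD (-0.71) and MT-TK (-0.24) had edgeR adjusted p of 0.255 to 0.973. The direction was not stable for MT-TD and MT-TK. MT-TD's difference was 1.95 with the replicate number as a block and 1.54 without KG1a cell rPAL replicate 4. MT-TK's was 0.34 without KG1a cell rPAL replicate 2. MT-TH also differed between the lines in total RNA, where it was higher in HL60 cells, as given below.

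Within the contiguous genes MT-TH, MT-TS2 and MT-TL2, MT-TH held most of the rPAL counts in both lines. It took 91.1% to 97.1% of their summed counts in KG1a cell rPAL and 27.8% to 40.8% in KG1a cell total RNA. In HL60 cells it took 86.8% to 92.7% in rPAL and 33.9% to 52.4% in total RNA. The rPAL and total ranges did not overlap in either line, although MT-TH itself was called higher in KG1a cells and not in HL60 cells. In HL60 lEV total RNA the share was 77.5% to 94.0%, also above the range of HL60 cell total RNA, and in KG1a lEV total RNA it was 56.99% to 68.3%, above that of KG1a cell total RNA. These shares are a description, chosen after their values were seen, and were not tested.

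**Figure D2:**
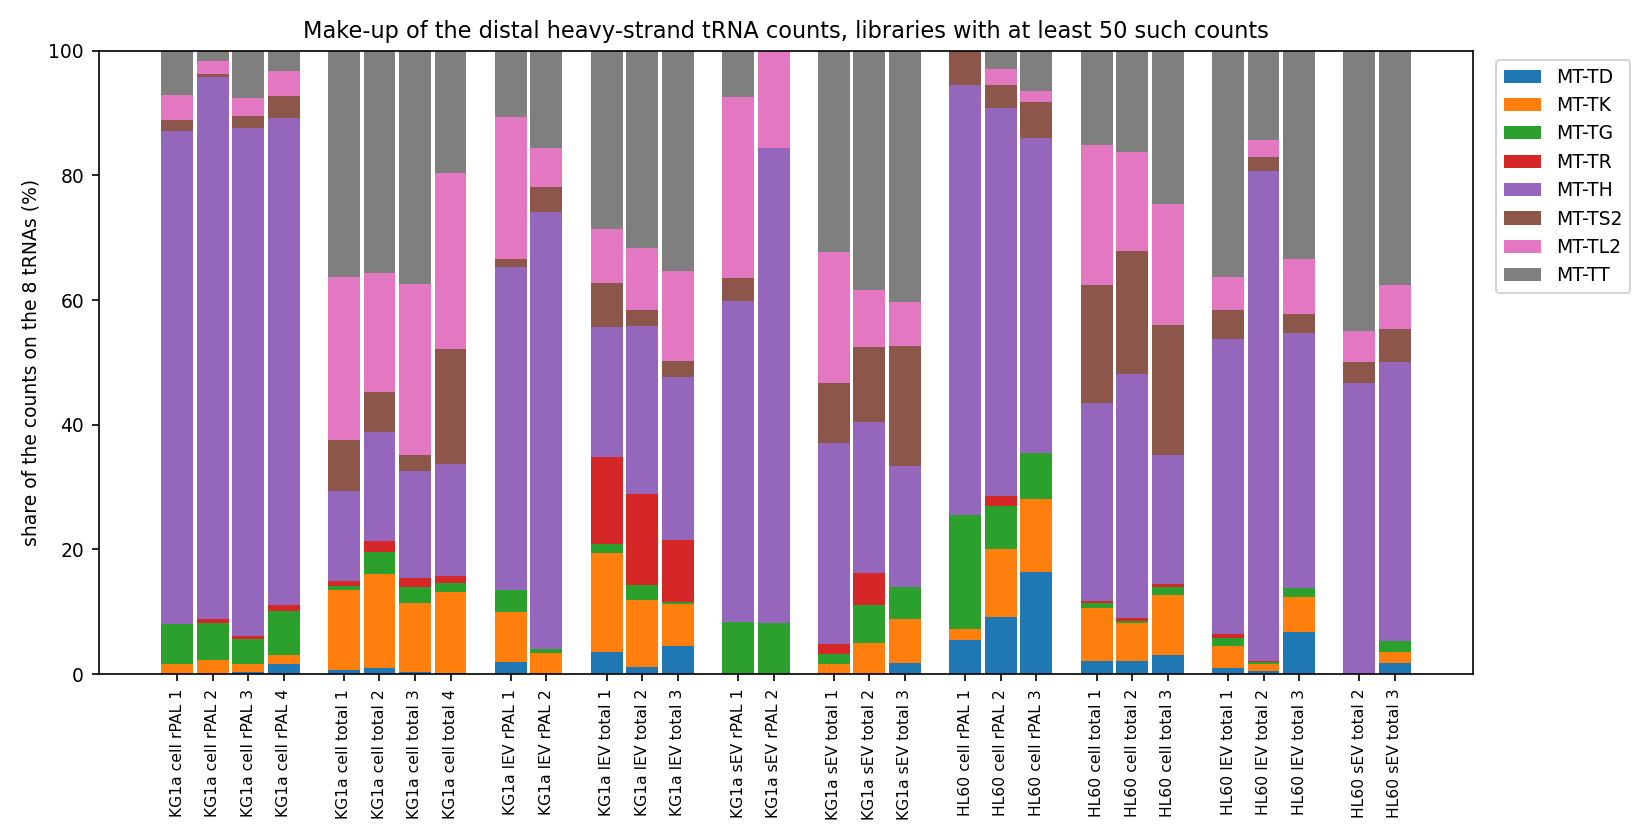
Share (%) of the counts on the 8 distal heavy-strand tRNAs that each tRNA took, 1 stacked bar per library, for libraries with at least 50 such counts; rPAL libraries stand left of the total RNA libraries of the same source. MT-TH (purple) takes 78.1% to 86.9% in KG1a cell rPAL and 14.4% to 17.9% in KG1a cell total RNA.

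The summed level of the 8 tRNAs was 206.5 ± 125.1 CPM in KG1a cell rPAL and 79.58 ± 42.87 CPM in KG1a cell total RNA (SD, n = 4 each). In HL60 cells it was 50.61 ± 28.24 CPM in rPAL and 205.6 ± 101.2 CPM in total RNA (SD, n = 3 each). As a share of all mitochondrial tRNA counts the 8 were lower in rPAL in both lines. They made up 2.77% to 4.51% in KG1a cell rPAL and 7.48% to 14.9% in KG1a cell total RNA. In HL60 cells the share was 0.698% to 1.58% in rPAL and 17.6% to 24.4% in total RNA. These shares depend on the level of the other mitochondrial tRNAs. The light-strand tRNAs summed to 258.3 to 663.1 CPM in KG1a cell rPAL and 173.6 to 569 CPM in KG1a cell total RNA. In HL60 cells they summed to 89.88 to 229.6 CPM in rPAL and 317.3 to 701.2 CPM in total RNA. The 6 heavy-strand tRNAs near the start of the transcript summed to 3244 to 7695 CPM in KG1a cell rPAL and 136.5 to 210.9 CPM in KG1a cell total RNA. MT-TV, 1 of these 6, held 306201 of the 440168 mitochondrial tRNA counts of all libraries. The higher sum is therefore not a trait of all 6, and some of them fell, as given next.

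Calls in both directions were also found among the other 14 mitochondrial tRNAs. In KG1a cells 2 of the 6 early heavy-strand tRNAs rose and 1 fell, and of the 8 light-strand tRNAs 1 rose and 3 fell, where 8.89% of all features were higher and 9.86% lower. In HL60 cells 2 of 6 early tRNAs rose and 3 fell, and of the light-strand tRNAs 1 rose and 5 fell, where 20.6% of all features were higher and 18% lower. The 3 that rose were MT-TV, MT-TI and MT-TC in both lines. MT-TV, the tRNA for valine, had log2 fold changes of 4.88 (SE 0.51, edgeR adjusted p = 0.00028) in KG1a cells and 5.29 (SE 0.32, edgeR adjusted p = 4.41e-06) in HL60 cells. MT-TH's 3.38 in KG1a cells was thus the largest among the distal members and lower than MT-TV's, while in HL60 cells none of the distal members was called higher.

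**Figure D3:**
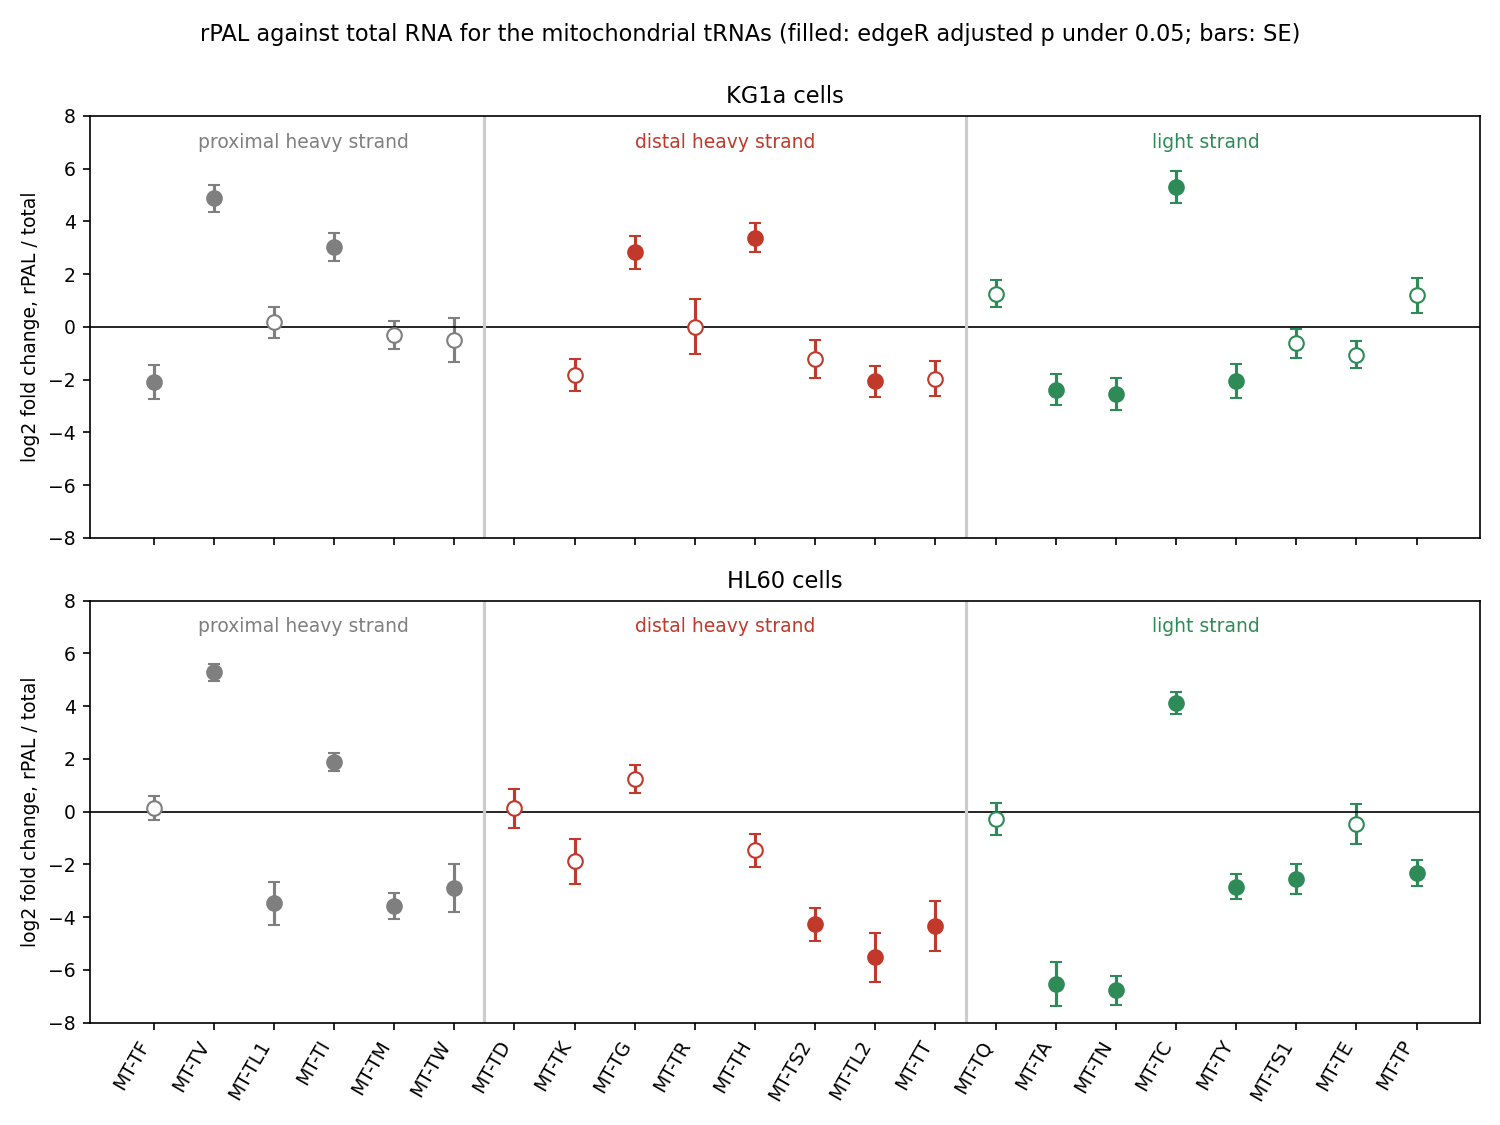
log2 fold change of rPAL over total RNA (y axis) for each mitochondrial tRNA tested, in KG1a cells (top) and HL60 cells (bottom), with the heavy-strand tRNAs in the order of the transcript; bars are SE and filled points have an edgeR adjusted p under 0.05. MT-TG and MT-TH are the distal tRNAs called higher in KG1a cells, at 2.83 and 3.38, and MT-TS2, MT-TL2 and MT-TT are those called lower in HL60 cells, at -4.28, -5.53 and -4.34.

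In HL60 vesicles, rPAL held few reads of the 8 tRNAs, 19 counts in lEV and 1 count in sEV. In KG1a lEV the 8 summed to 582 counts in rPAL and 1233 in total RNA. In KG1a sEV they summed to 267 counts in rPAL and 218 in total RNA, with means of 19.4 and 8.257 CPM. Replicate 3 of both KG1a vesicle rPAL groups held no count. Where counts of a group were 0, a fold is given against a floor of 3 counts over that group's libraries, as a lower bound. A member could enter these tests through its total RNA level alone, so the counts of calls below describe the members tested and do not stand for all 8.

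In KG1a lEV 1 of the 6 tested members, MT-TR, was lower in rPAL, against 7.07% of all features tested. MT-TR had no count in KG1a lEV rPAL and 5.856, 6.308 and 2.447 CPM in KG1a lEV total RNA, so it was at least 36.3-fold lower in rPAL (edgeR adjusted p = 0.0242). The call was lost without total replicate 1 (adjusted p = 0.0783), without the count filter and with the replicate number as a block. MT-TK, MT-TS2, MT-TL2 and MT-TT had log2 fold changes of -1.74, -1.44, -0.20 and -2.04 and were not called (edgeR adjusted p of 0.373 to 0.958). MT-TD, with 6 counts in KG1a lEV rPAL and 35 in KG1a lEV total RNA, and MT-TG, with 13 and 19, were not tested. MT-TH had 15.91, 20.36 and 0 CPM in KG1a lEV rPAL and 8.705, 11.6 and 6.423 CPM in KG1a lEV total RNA (edgeR adjusted p = 0.861). Both rPAL libraries with counts lay above the total libraries and the third was at 0, where a count of 0 allows up to 1.05 CPM.

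In KG1a sEV none of the 3 tested members was called by edgeR or by DESeq2, and 0 had an unadjusted edgeR p under 0.05, against 6.61% of all features called in either direction. MT-TH had 16.51, 19.89 and 0 CPM in KG1a sEV rPAL and 2.143, 2.795 and 1.273 CPM in KG1a sEV total RNA (edgeR adjusted p = 0.46). MT-TL2 had 9.306, 4.076 and 0 CPM in KG1a sEV rPAL and 1.393, 1.048 and 0.4631 CPM in KG1a sEV total RNA (edgeR adjusted p = 0.509). For both tRNAs 2 rPAL libraries lay above every total library and replicate 3 lay below them. MT-TG, which was not tested, showed the same arrangement with 2.702, 2.119 and 0 CPM in rPAL and 0.1072, 0.6987 and 0.3473 CPM in total RNA. MT-TT, with 8 counts in KG1a sEV rPAL and 81 in KG1a sEV total RNA, had a log2 fold change of -2.05 (edgeR adjusted p = 0.484). MT-TD and MT-TR, with no count in KG1a sEV rPAL, and MT-TS2, with 4, were not tested. MT-TK, also not tested, had no count in KG1a sEV rPAL, so that it was at least 1.52-fold lower than in KG1a sEV total RNA.

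In HL60 lEV all 5 tested members were lower in rPAL, MT-TK, MT-TH, MT-TS2, MT-TL2 and MT-TT, against 18.9% of all 3219 features tested. The only counts of the 8 tRNAs in HL60 lEV rPAL were 19 on MT-TH in replicate 2 (4.393 CPM). MT-TT, at 17.44, 36.43 and 13.91 CPM in HL60 lEV total RNA, was at least 106-fold lower in rPAL (edgeR adjusted p = 0.00806). MT-TL2 was at least 20.5-fold, MT-TS2 at least 14.4-fold and MT-TK at least 10.5-fold lower. MT-TH had 0, 4.393 and 0 CPM in HL60 lEV rPAL and 22.72, 199.2 and 17.09 CPM in HL60 lEV total RNA (log2 fold change -7.46, SE 2.24, edgeR adjusted p = 0.0345). Without any 1 of the 3 total libraries the calls for MT-TK, MT-TH, MT-TS2 and MT-TL2 were lost (adjusted p up to 0.195), and MT-TT's was lost without total replicate 2 (adjusted p = 0.0564). MT-TH's log2 fold change was then -5.22 without total replicate 2, -8.26 without total replicate 1 and -8.32 without total replicate 3, and without rPAL replicate 2 no rPAL count was left. The calls for MT-TK, MT-TS2 and MT-TL2 were also lost without the count filter, those for MT-TS2 and MT-TL2 with the replicate number as a block, and MT-TH's without TMM scaling.

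MT-TD and MT-TG were not tested in HL60 lEV alone, where they had no rPAL count and were at least 7.44-fold and 3.20-fold lower in rPAL. MT-TR, with no rPAL count and 7 counts in HL60 lEV total RNA, was not tested either. In HL60 sEV none of the 8 members passed the filter, where 18.8% of the 3619 features tested were called. A single count, on MT-TH in replicate 1 (0.2527 CPM), was found in the 3 HL60 sEV rPAL libraries. MT-TT was at least 7.83-fold and MT-TS2 at least 4.50-fold lower in HL60 sEV rPAL than in HL60 sEV total RNA. HL60 lEV and sEV rPAL libraries also held 35.4% to 63.3% of their counts on rRNA, against 4.94% to 29.9% in the total libraries of these vesicles, and the part of this in the tRNA levels was not tested.

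The rPAL effect in vesicles was also set against that in the cells of the same line. In HL60 lEV minus HL60 cells, MT-TD (edgeR adjusted p = 0.0377), MT-TG (0.0203) and MT-TT (0.0439) were called lower, 3 of 7 tested against 11.4% of all features, and MT-TK, MT-TH, MT-TS2 and MT-TL2 were not (edgeR adjusted p of 0.0642 to 0.255). The rPAL counts of MT-TD, MT-TG and MT-TT in HL60 lEV were 0, so no size is given. MT-TD and MT-TG were not tested in HL60 lEV alone and could pass the filter here through the cell libraries. The 3 of 7 therefore describes the members tested and is not read against the share over all features. Each call was lost in 5 to 10 of the 12 fits that left out a library, the largest adjusted p being 0.11 for MT-TD, 0.0895 for MT-TG and 0.104 for MT-TT. Every HL60 cell total, HL60 lEV total and HL60 cell rPAL library except HL60 cell rPAL replicate 1 was among those whose removal ended at least 1 of the calls, as were replicates 1 and 3 of HL60 lEV rPAL. None of the 3 calls held with the replicate number as a block or without the count filter, and the 1 member called under each of these was MT-TH. MT-TG's call was kept in the other 3 settings, MT-TD's with DESeq2's test alone and MT-TT's in 0 of 5.

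For the same contrast in the other vesicles edgeR called none of the members tested. For KG1a lEV minus KG1a cells edgeR called 0 of 8 members, against 0% of 10440 features, with unadjusted p under 0.05 for 1 member (MT-TR) and for 1498 features in all, while DESeq2 called 1 member, MT-TR, lower. The edgeR adjusted p of the members ranged from 0.107 to 0.9999. For KG1a sEV minus KG1a cells edgeR called 0 of 7, against 0.0584% of all features, with 1 member (MT-TL2) at an unadjusted p under 0.05, and DESeq2 called MT-TL2 higher. The adjusted p there were 0.168 to 0.9999, and MT-TD was not tested. For HL60 sEV minus HL60 cells edgeR and DESeq2 each called 0 of 7, against 13.2% of all features by edgeR, with 1 member (MT-TH) at an unadjusted p under 0.05 and adjusted p of 0.151 to 0.859. MT-TR was not tested in the HL60 contrasts. These contrasts share the cell libraries of their line.

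In total RNA of KG1a, lEV held more MT-TR and less of 4 other members than cells. The lEV, sEV and cell comparisons of a line share libraries, so their calls are not independent of each other. A member could pass the filter on low counts through the group where it was high, so the counts of calls in these comparisons describe the members that passed and are not read against the share over all features. For lEV against cells 1 of 7 tested members was higher, against 23.8% of all features, and 4 were lower, against 28.5%. MT-TR had 5.856, 6.308 and 2.447 CPM in KG1a lEV total RNA and 1.015, 0.7397, 1.414 and 0.5877 CPM in KG1a cell total RNA. The groups did not overlap (log2 fold change 2.30, SE 0.42, edgeR adjusted p = 0.000316), and the call held without any single library.

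MT-TL2 had 3.64, 4.267 and 3.568 CPM in KG1a lEV total RNA, below all 4 KG1a cell total libraries given above (log2 fold change -2.56, SE 0.52, edgeR adjusted p = 0.000692). MT-TS2 had 2.928, 1.113 and 0.6117 CPM in KG1a lEV total RNA and 11.01, 2.712, 2.45 and 8.731 CPM in KG1a cell total RNA (log2 fold change -2.13, SE 0.62, edgeR adjusted p = 0.00899), with 1 lEV library inside the cell range, and was -3.02 without that library, lEV replicate 1. MT-TK (log2 fold change -1.33, SE 0.51, edgeR adjusted p = 0.0364) and MT-TT (-1.36, SE 0.53, edgeR adjusted p = 0.0385) were also called lower. Those last 2 calls were each lost without cell replicate 1, cell replicate 3, lEV replicate 2 or lEV replicate 3, and MT-TT's also without lEV replicate 1, with adjusted p up to 0.162 for MT-TK and 0.18 for MT-TT. Without cell replicate 1 MT-TT's value was -0.77, and its call was also lost without TMM scaling. MT-TH, with 8.705, 11.6 and 6.423 CPM in KG1a lEV total RNA and 7.48 to 19.13 CPM in KG1a cell total RNA, was not called (edgeR adjusted p = 0.234), nor was MT-TG (log2 fold change -1.31, edgeR adjusted p = 0.0691). MT-TD was not tested.

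KG1a sEV total RNA held less of the 5 members that passed the filter than cells, where 22.1% of all features tested were lower. MT-TD, MT-TG and MT-TR, with 1, 10 and 6 counts in KG1a sEV total RNA, did not pass it. The log2 fold changes were -5.77 (SE 0.73) for MT-TK, -5.43 (SE 0.77) for MT-TL2, -4.15 (SE 0.72) for MT-TT, -3.64 (SE 0.73) for MT-TS2 and -3.63 (SE 0.61) for MT-TH, with edgeR adjusted p of at most 0.00217. MT-TH had 2.143, 2.795 and 1.273 CPM in KG1a sEV total RNA, and every sEV library lay below every cell library. These 5 calls held without any single library and under each of the 5 other settings. Without sEV replicate 2 the values were -6.49 for MT-TK and -4.85 for MT-TT. All 13 mitochondrial mRNAs were lower in KG1a sEV than in cells as well.

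Between the vesicles of KG1a, 5 of 6 tested members were lower in sEV than in lEV, against 1.9% of all features tested. In the same comparison all 13 mitochondrial mRNAs, 4 of 8 light-strand tRNAs and 1 of 4 tested early heavy-strand tRNAs were lower. None of these was called higher. MT-TR had 0.1072, 0.5823 and 0 CPM in KG1a sEV total RNA and 5.856, 6.308 and 2.447 CPM in KG1a lEV total RNA (log2 fold change -5.12, SE 0.95, edgeR adjusted p = 0.0371). MT-TK, MT-TH, MT-TL2 and MT-TT had log2 fold changes of -4.32, -2.86, -2.73 and -2.66, with edgeR adjusted p of at most 0.0394. MT-TS2 was not called (log2 fold change -1.36, edgeR adjusted p = 0.261), and MT-TD and MT-TG were not tested. All 5 calls were kept in the fit with the replicate number as a block. All 5 were lost without any 1 of the lEV libraries (adjusted p up to 0.254), and MT-TT's also without sEV replicate 3. Without sEV replicate 2 the values were -7.23 for MT-TR, -5.11 for MT-TK, -3.515 for MT-TH and -3.44 for MT-TT, and without sEV replicate 3 MT-TR had -4.44.

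**Figure D4:**
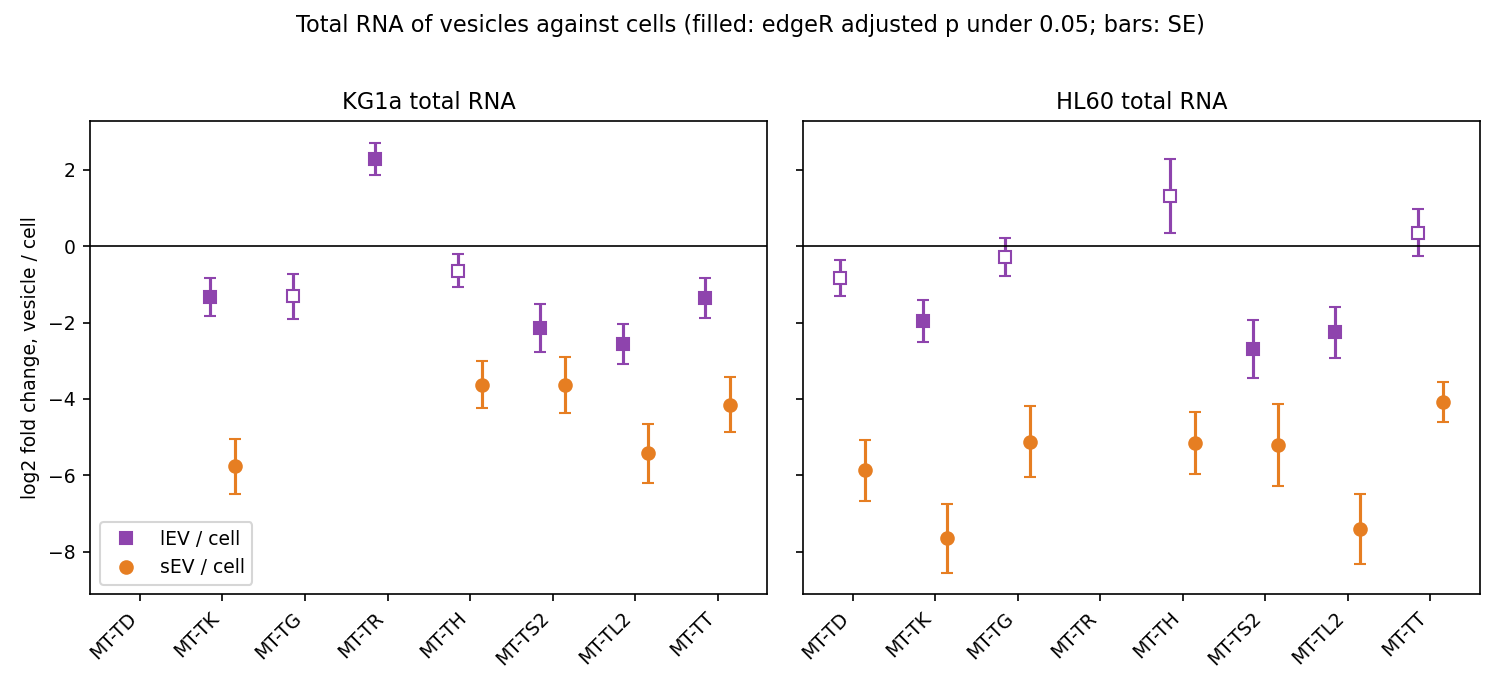
log2 fold change of total RNA in lEV over cells (squares) and in sEV over cells (circles) for each member tested, in KG1a (left) and HL60 (right); bars are SE and filled points have an edgeR adjusted p under 0.05. MT-TR in KG1a lEV, at 2.30, is the 1 filled point above 0, and every sEV point is filled and lies between -7.65 and -3.63.

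In HL60 total RNA 3 of 7 tested members were lower in lEV than in cells, against 15.2% of all features tested. MT-TK had 1.677, 2.707 and 2.367 CPM in HL60 lEV and 25.54, 13.29 and 9.436 CPM in HL60 cells (log2 fold change -1.96, SE 0.54, edgeR adjusted p = 0.018). MT-TS2 had 2.264, 5.706 and 1.258 CPM in HL60 lEV (log2 fold change -2.69, SE 0.76, edgeR adjusted p = 0.0193), and MT-TL2 had 2.515, 6.95 and 3.699 CPM there (log2 fold change -2.26, SE 0.67, edgeR adjusted p = 0.0254). In all 3 cases every lEV library was below every cell library. All 3 calls were lost without cell replicate 1 (adjusted p up to 0.124), those of MT-TS2 and MT-TL2 also without cell replicate 2, and those of MT-TK and MT-TL2 also without lEV replicate 3. Without lEV replicate 2 the values were -3.75 for MT-TS2 and -3.05 for MT-TL2.

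MT-TH was not called in HL60 lEV, and its difference from its neighbours MT-TS2 and MT-TL2 was not tested. It had 22.72, 199.2 and 17.09 CPM in HL60 lEV total RNA and 94.74, 86.62 and 20.2 CPM in HL60 cell total RNA. The log2 fold change of MT-TH was 1.31 (edgeR adjusted p = 0.329). Without lEV replicate 2 it was -1.01 (edgeR adjusted p = 0.211), the direction of those neighbours. Replicate 2 of HL60 lEV was the highest total RNA library for MT-TH in the whole series, and the other 2 lEV libraries lay on either side of the lowest cell library. MT-TT had 17.44, 36.43 and 13.91 CPM in HL60 lEV and 23.97 to 45.02 CPM in HL60 cells (edgeR adjusted p = 0.696). MT-TD (log2 fold change -0.83, edgeR adjusted p = 0.209) and MT-TG (-0.28, edgeR adjusted p = 0.699) were not called either, and MT-TR was not tested.

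HL60 sEV total RNA held less of the 7 members that passed the filter than cells, where 12.8% of all features tested were lower. These members passed through the cell libraries: the 3 sEV libraries together held 1 count of MT-TG, 2 of MT-TD, 2 of MT-TK, 7 of MT-TL2, 25 of MT-TS2, 58 of MT-TH and 59 of MT-TT. The log2 fold changes were -7.65 (SE 0.90) for MT-TK, -7.41 (SE 0.92) for MT-TL2, -5.87 (SE 0.79) for MT-TD, -5.20 (SE 1.08) for MT-TS2, -5.16 (SE 0.80) for MT-TH, -5.12 (SE 0.93) for MT-TG and -4.08 (SE 0.54) for MT-TT, with edgeR adjusted p of at most 0.00883. MT-TR had no count in HL60 sEV total RNA and was at least 5.42-fold lower than in cells. Of the other mitochondrial RNAs, 11 of 13 mRNAs, 6 of 8 light-strand tRNAs and all 6 early heavy-strand tRNAs were also called lower. MT-TG's call was lost without cell replicate 1 (adjusted p = 0.053) and MT-TS2's without cell replicate 1 or 2 (adjusted p up to 0.063). Without cell replicate 3 the values were -8.25 for MT-TK, -8.105 for MT-TL2, -5.95 for MT-TH, -5.94 for MT-TS2 and -4.68 for MT-TT. Without sEV replicate 1 they were -8.35 for MT-TK, -7.58 for MT-TS2 and -6.57 for MT-TD, and without sEV replicate 2 MT-TH had -5.88. Without sEV replicate 3 no sEV count of MT-TG was left. MT-TT had the highest mean level per length in sEV total RNA of both lines, though not beyond the spread of MT-TH.

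Against HL60 lEV, 4 of 5 tested members were lower in HL60 sEV, MT-TK, MT-TH, MT-TL2 and MT-TT, against 1.75% of all features tested. In the same comparison 11 of 13 mitochondrial mRNAs, 6 of 8 light-strand tRNAs and 3 of 5 tested early heavy-strand tRNAs were lower. None of these was called higher. MT-TS2 was not called (log2 fold change -2.54, edgeR adjusted p = 0.166), and MT-TD, MT-TG and MT-TR were not tested. MT-TH had 0.9094, 3.355 and 2.402 CPM in HL60 sEV total RNA and 22.72, 199.2 and 17.09 CPM in HL60 lEV total RNA (log2 fold change -6.49, SE 1.27, edgeR adjusted p = 0.0152). MT-TT had 2.001, 3.235 and 2.018 CPM in HL60 sEV and 17.44, 36.43 and 13.91 CPM in HL60 lEV (log2 fold change -4.42, SE 0.91, edgeR adjusted p = 0.0157). Neither tRNA overlapped between the vesicle types. All 4 calls were lost without any 1 lEV library (adjusted p up to 0.183), and those of MT-TH and MT-TT also without sEV replicate 1. Without lEV replicate 2 the values were -4.18 for MT-TH, -4.39 for MT-TL2 and -3.73 for MT-TT, and MT-TH had -7.17 without lEV replicate 3 and -7.12 without sEV replicate 2.

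Between the lines, total RNA of HL60 cells held more MT-TD, MT-TH and MT-TS2 than that of KG1a cells, 3 of 8 members against 18.4% of all features tested. A member could pass the filter on low counts through the line where it was high, in cells and in lEV. The counts of calls between the lines therefore describe the members tested and are not read against the share over all features. MT-TD had 6.278, 4.633 and 2.936 CPM in HL60 cells and 0.7971, 0.411, 0.2827 and 0.08395 CPM in KG1a cells (log2 fold change 3.56, SE 0.46, edgeR adjusted p = 6.7e-06). MT-TH, at 94.74, 86.62 and 20.2 CPM in HL60 cells and 19.13, 7.48, 16.3 and 8.479 CPM in KG1a cells, had a log2 fold change of 2.499 (SE 0.53, edgeR adjusted p = 0.00187). MT-TS2, at 56.72, 43.44 and 20.48 CPM in HL60 cells and 11.01, 2.712, 2.45 and 8.731 CPM in KG1a cells, had a log2 fold change of 2.72 (SE 0.58, edgeR adjusted p = 0.00235). For all 3 the lines did not overlap, and all 3 calls held without any single library and under each of the 5 other settings. MT-TD's value was 4.23 without KG1a replicate 1. MT-TK, MT-TG, MT-TR, MT-TL2 and MT-TT were not called, with edgeR adjusted p of 0.132 to 0.629.

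In lEV total RNA HL60 was higher for MT-TH and MT-TT, against 7.04% of all features tested, and lower for MT-TR, against 9.07%, among 7 tested members. MT-TR had 0.3354, 0.2195 and 0 CPM in HL60 lEV and 5.856, 6.308 and 2.447 CPM in KG1a lEV (log2 fold change -3.66, SE 0.82, edgeR adjusted p = 0.00877), and the call held without any single library, at -4.40 without HL60 replicate 1 and -2.83 without HL60 replicate 3. MT-TH had 22.72, 199.2 and 17.09 CPM in HL60 lEV and 8.705, 11.6 and 6.423 CPM in KG1a lEV (log2 fold change 4.53, SE 1.09, edgeR adjusted p = 0.0139), a call lost without KG1a lEV replicate 1 (adjusted p = 0.0663). Without HL60 lEV replicate 2, its highest library, the log2 fold change of MT-TH was 2.04 (adjusted p = 0.0177). MT-TT had 17.44, 36.43 and 13.91 CPM in HL60 lEV and 11.95, 13.64 and 8.666 CPM in KG1a lEV (log2 fold change 2.19, SE 0.68, edgeR adjusted p = 0.0459). The lines did not overlap for any of the 3. MT-TT's call was lost without any 1 KG1a lEV library, without HL60 lEV replicate 2 (1.33), without TMM scaling and without the count filter (adjusted p up to 0.165 with a library left out). MT-TD, MT-TK, MT-TS2 and MT-TL2 were not called by edgeR (adjusted p of 0.0783 to 0.924), DESeq2's test and edgeR without the filter called MT-TS2 higher, and MT-TG was not tested.

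In sEV total RNA edgeR and DESeq2 called 0 of the 3 tested members between the lines, with 0 at an unadjusted edgeR p under 0.05, against 1.38% of all features tested. MT-TH had 0.9094, 3.355 and 2.402 CPM in HL60 sEV and 2.143, 2.795 and 1.273 CPM in KG1a sEV (edgeR adjusted p = 0.69), and these ranges overlapped. MT-TS2 (edgeR adjusted p = 0.746) and MT-TT (0.866) were the other 2, and MT-TD, MT-TK, MT-TG, MT-TR and MT-TL2 were not tested.

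Set against each other per length, as CPM per kilobase of gene length, the members ranked differently in rPAL and total RNA. In KG1a cell rPAL MT-TH led with 2489 ± 1647 (SD, n = 4), ahead of MT-TG at 173.6 ± 111.2 and MT-TT at 129.2 ± 66.89, while MT-TD came last at 8.785 ± 12.5. In KG1a cell total RNA MT-TT led with 410.4 ± 273.7, ahead of MT-TL2 at 290.5 ± 170.5 and MT-TH at 186.2 ± 83.39 (SD, n = 4). Those 3 neighbours in the order lay within 1 SD of each other, as did MT-TG and MT-TT in KG1a cell rPAL.

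In HL60 cell rPAL MT-TH led with 427.3 ± 231.4 CPM per kilobase, followed by MT-TD at 86.79 ± 67.2, MT-TK at 73.05 ± 59.21 and MT-TG at 63.26 ± 12.22 (SD, n = 3). In HL60 cell total RNA the order was MT-TH at 973.7 ± 592.7, MT-TS2 at 681.6 ± 310.7, MT-TL2 at 568.3 ± 343.7 and MT-TT at 529.2 ± 159.8 (SD, n = 3). These first 4 did not differ beyond their spread, and MT-TR was last at 10.31 ± 3.343. The highest rank of MT-TR in any group was the third, in KG1a lEV total RNA, at 74.93 ± 32.48 (SD, n = 3).

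Across the 38 libraries the members fell into looser and tighter pairs by the correlation of log2(CPM + 1), given as a description since libraries share source and depth. The closest were MT-TL2 and MT-TT (Pearson r = 0.848), MT-TK and MT-TL2 (0.840) and MT-TK and MT-TT (0.830). MT-TG was closest to MT-TH (0.803) and MT-TR was at most 0.590 with any member. Among the other 1014 features with at least 5000 counts, the feature nearest to the summed level of the 8 was an RNAcentral tRNA entry (0.887), and the next 4 were RNAcentral snoRNA or tRNA entries (0.839 to 0.853). For single members, the nearest was MT-TN, the light-strand tRNA for asparagine, for MT-TL2 (0.883) and MT-TT (0.862), MT-TE, for glutamate, for MT-TK (0.844), and MT-TC, for cysteine, for MT-TG (0.891). The nearest to MT-TH (0.841) and MT-TD (0.673) were RNAcentral tRNA entries, and those to MT-TS2 (0.844) and MT-TR (0.578) RNAcentral snoRNA entries. For MT-TH the early heavy-strand tRNA MT-TI had the same r of 0.841 to the digits given. MT-TC is also the light-strand tRNA that rose with rPAL in both lines.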

How the data were processed

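Small RNA counts of 38 libraries were taken as deposited. The authors deposited raw read counts per feature, made with Bowtie2 on GRCh38 (hg38) per the submitters' processing notes. The counting program, its use of strand and its treatment of reads with several hits are not given in the sources used here, so reads of nuclear copies of mitochondrial DNA, of RNAcentral tRNA entries or spanning adjacent tRNAs may be counted elsewhere or here. All value columns matched a labelled sample.

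CPM divide a count by the library total. Comparisons (15 between 2 groups and 5 differences of rPAL effects) were fitted over all features with edgeR 4.0.16 in R 4.3.3, with only the groups concerned, TMM scaling, filterByExpr, robust quasi-likelihood tests (two-sided) and p-values adjusted per comparison by Benjamini-Hochberg, with a threshold of 0.05. Fold changes follow TMM scaling, so they can differ from ratios of CPM. DESeq2 1.42.0 was an alternative. The scripts were tested on simulated data. CPM, shares and plots used Python 3.11.15, pandas 2.3.3 and matplotlib 3.10.9. GENCODE release 29 gave coordinates, lengths and sequences on GRCh38. Limits for a count of 0 use 3 counts and, like all counting intervals, cover counting error only.

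The rule was to name all 8 members in every comparison, those that did not pass the filter as not tested. The members and lists were chosen with earlier results of these data known. In total RNA of KG1a sEV and lEV the deviations of same-numbered libraries correlated at 0.4195, 0.1363 and 0.2862. In sEV total RNA of HL60 and KG1a, which are different lines, they correlated at 0.08325, 0.3042 and 0.3442. The labels give no pairing, so these correlations do not show that replicate numbers pair libraries. The main fits used no pairing. Alternatives were no TMM, DESeq2 size factors, the DESeq2 test, no count filter, a replicate block, each library left out and, added after the data were seen, KG1a cell rPAL replicates 1 and 4 only.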

Additional observations from a re-analysis of the deposited data

Results flagged for a closer look

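In KG1a cell rPAL, replicate 2 lay far from the other 3 libraries for MT-TK, at 8.629 CPM against 1.61 to 2.434 CPM, and for MT-TG, at 23.04 CPM against 6.943 to 9.433 CPM. By the test for a single outlying library, run on each of the 8 members in the 2 groups of 4 libraries, 16 times in all, chance flags about 1 in 20. MT-TH's rPAL effect differed between HL60 and KG1a cells (edgeR interaction contrast, adjusted p = 0.008145), with the 2 effects in opposite directions, of which edgeR called the rise in KG1a cells by itself and not the fall in HL60 cells. The rPAL effects in HL60 lEV and HL60 cells differed for MT-TD (adjusted p = 0.03765), MT-TG (adjusted p = 0.02027) and MT-TT (adjusted p = 0.04389), each with no rPAL count in lEV.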

How the results depend on the processing

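Of the 51 calls for members, 23 held in every fit with a library left out, 39 under every other setting and 22 throughout. In HL60 vesicle rPAL no member other than MT-TH had a count, so sizes there are lower bounds at most, whereas 7 members had counts in KG1a lEV rPAL and 5 in KG1a sEV rPAL.

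Counts of members called moved by more than 1.5 times as follows. For rPAL in KG1a cells the count was 3, against 5 with DESeq2 and 1 without the count filter. In KG1a lEV it was 1, against 0 without the filter and 0 with the replicate block. In HL60 cells it was 3, against 5 with DESeq2 size factors, the DESeq2 test or no filter, and in HL60 lEV 5, against 2 without the filter and 3 with the replicate block. For KG1a sEV against cell total RNA it was 5, against 8 without the filter. For the rPAL difference between HL60 and KG1a cells it was 1, against 3 with DESeq2 and 3 with KG1a cell rPAL replicates 1 and 4 only. The differences of KG1a lEV and of KG1a sEV from cells had 0, against 1 each with DESeq2. That of HL60 lEV from cells had 3, against 1 without TMM, with DESeq2 size factors, without the filter and with the replicate block. That 1 member was MT-TG under the first 2 and MT-TH, which is none of the 3, under the last 2. Elsewhere the replicate block changed no count by that much. The causes were not tested.

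With a library left out, the counts for rPAL ranged from 2 to 4 in KG1a cells, 0 to 2 in KG1a lEV, 3 to 6 in HL60 cells and 0 to 6 in HL60 lEV. In total RNA they ranged from 3 to 6 for KG1a lEV against cell, 5 to 7 for sEV against cell and 0 to 6 for sEV against lEV, and from 0 to 3, 5 to 8 and 0 to 5 for the same comparisons in HL60. Between lines they were 3 to 6 in cells and 1 to 4 in lEV, and for HL60 lEV minus cells 0 to 5. The others stayed at 1 or 0.

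No value that changed direction was called in either fit. Differences of rPAL effects also changed direction for some uncalled members and are not listed here. For rPAL in KG1a cells MT-TR, 0.02 on the log2 scale, was -0.70 with rPAL replicates 1 and 4 only, -0.11 with DESeq2 size factors, -0.11 with DESeq2, -0.26 without the filter and -0.49 with the replicate block. In HL60 cells MT-TD, 0.13, was -0.35, -0.36, -0.23 and -0.22 under the last 4 of these. MT-TH in KG1a lEV rPAL, 0.53, was -0.50 with the replicate block. MT-TT in HL60 lEV against cells, 0.36, was -0.63 without TMM and -0.046 without the filter. MT-TK in HL60 against KG1a lEV, 0.10, was -0.94 and -0.20 under these settings, and MT-TT in HL60 against KG1a sEV, 0.36, was -0.34 without TMM. With a library left out, the ranges were -0.63 to 0.43 for MT-TR in KG1a cell rPAL, -2.02 to 0.39 for MT-TL2 in KG1a lEV rPAL and -0.72 to 0.11 for MT-TD in HL60 cell rPAL. In HL60 lEV against cells they were -0.72 to 0.14 for MT-TG, -1.01 to 1.89 for MT-TH and -0.40 to 0.80 for MT-TT. In HL60 against KG1a they were -0.063 to 0.55 for MT-TG in cells, -0.35 to 0.58 for MT-TK in lEV and -1.25 to 1.48 for MT-TS2 in sEV.

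Without TMM the median log2 fold change of all features moved from 0.08 to 1.54 for rPAL in HL60 lEV and by over 0.1 in most other comparisons. The share of calls that were higher was there 58.4%, against 39.4% with TMM. For sEV against cell, sEV against lEV and lEV against cell it moved from 51.1% to 81.2% and 64.2% to 94.5% in KG1a (the first 2), and from 51.9% to 64.1%, 75.7% to 96.7% and 44.3% to 10.9% in HL60. Between the lines it moved from 43.7% to 10.98% in lEV and 44.1% to 20.2% in sEV. For the rPAL difference from cells it moved from 10.5% to 24.3% in HL60 lEV and from 62.5% to 20% in KG1a sEV, where edgeR called 8 features with TMM.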

Other observations

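Some enzymes that process the 8 tRNAs were measured through their mRNA fragments. Of 5 genes for tRNA end processing (PRORP, TRMT10C, HSD17B10, ELAC2 and TRNT1), 1 was tested for rPAL in KG1a cells and 2 in HL60 cells, and edgeR called none, with 0 at an unadjusted p under 0.05. TRNT1, which adds the CCA tail, had a log2 fold change of 1.24 (SE 1.11, edgeR adjusted p = 0.533) in KG1a cells and -0.80 (SE 0.64, edgeR adjusted p = 0.376) in HL60 cells. ELAC2, which cuts the 3′ end, had 0.90 (SE 0.60, edgeR adjusted p = 0.289) in HL60 cells.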
